A study of Mus musculus with 9 samples.

Results

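The CatSper channel and other ion channels of sperm were followed in mouse spermatids, the haploid germ cells that leave meiosis and are remodelled into sperm. The members were 9 genes fixed by symbol, namely the pore-forming subunits Catsper1, Catsper2, Catsper3 and Catsper4, the auxiliary subunits Catsperb and Catsperd, the potassium channel Kcnu1, the proton channel Hvcn1 and the potassium channel beta subunit Kcnab2. The platform annotation gave them 11 of the 45279 probes, with 2 each for Catsper3 and Hvcn1 and 1 for each other gene. Spermatid RNA came from 3 genotypes, each hybridised to 3 Illumina bead arrays. The controls are labelled Wip1+/+, the wild-type state of the gene for the phosphatase Wip1 (symbol Ppm1d). The other arrays are labelled Wip1-/-, for loss of that gene, and Wip1-/- Atm+/-, for the same loss with the further loss of 1 allele of the DNA damage kinase gene Atm. No source used here gives the age or strain of the mice, how the null alleles were made or how the spermatids were isolated. Separate animals are not stated for the 3 arrays of each genotype, so the p-values rest on a spread between arrays that may be only technical.

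CatSper is the calcium channel of the sperm tail. Its pore is built from the different CatSper alpha subunits, each of which is needed for a working channel, and it opens as the inside of the cell becomes alkaline in the female tract. The calcium that enters drives hyperactivated motility, the whip-like beat that a sperm needs to reach and penetrate the egg coat, and male mice without the channel are infertile. Kcnu1 encodes the pore of SLO3, the alkaline-activated potassium channel that sets the membrane potential of mouse sperm. Hvcn1 encodes a voltage-gated proton channel best known for extruding acid from human sperm. Kcnab2 differs from the others, since it encodes a cytoplasmic subunit of Shaker-type potassium channels that is best known from neurons.

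The median scanner signal ran from 100.5 to 121.8, and 37.9% to 42.0% of 43582 probes were detected on each array. Log2 values correlated at 0.987 to 0.993 between arrays of a genotype and at 0.958 to 0.982 between genotypes, across probes, which are not independent. Of the spermatid markers, 9 of 10 for round and 10 of 11 for elongating spermatids were detected. The brightest Ppm1d probe, ILMN_3133522, fell by 0.66 in Wip1-/- (limma adjusted p = 0.00639), but on the arrays labelled Wip1-/- Atm+/- its log2 change was 0.10 (limma adjusted p = 0.611), so the loss of Wip1 that the label gives was not seen there. Another Ppm1d probe, ILMN_1226504, was detected on the 3 Wip1-/- arrays and was not well above background on any other. On the arrays labelled Wip1-/- Atm+/-, Atm probe ILMN_1258206 was 1.03 higher than in Wip1+/+ and Atm probe ILMN_2492491 fell by 0.71, while ILMN_2783896 was not called (log2 changes). No source used here places these probes inside or outside the deleted part of the gene, so they do not settle the labels. Directions from the arrays labelled Wip1-/- Atm+/- rest on the label alone.

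Of the 11 probes, 8 probes of 7 genes were detected on at least 3 of the 9 arrays and were tested. Hvcn1 failed this filter, and the Kcnu1 probe has blank cells in the scanner table and was followed only in the authors' processed table. In Wip1-/- against Wip1+/+, 1 member probe of 8 rose (Catsper2) and 0 fell, where 17.6% of all 18867 probes tested were called, 9.57% higher and 8.05% lower (limma, Benjamini-Hochberg adjusted p under 0.05). In the arrays labelled Wip1-/- Atm+/- against Wip1+/+, 1 of 8 rose (Kcnab2) and 0 fell, against 28.1% of all probes called, 13.3% higher and 14.8% lower. Between the arrays labelled Wip1-/- Atm+/- and Wip1-/-, 1 of 8 rose (Kcnab2) and 1 fell (Catsper2), against 33.6% of all probes called, 15.1% higher and 18.5% lower. By the moderated F test over the 3 genotypes, 2 of 8 probes differed (Catsper2 and Kcnab2), against 41.3% of all probes. The median log2 change of the 8 probes was 0.16, 0.03 and -0.03 in the 3 comparisons, beside 0.02, -0.06 and -0.03 over all probes. The comparisons share arrays and are not independent of each other.

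**Figure D1:**
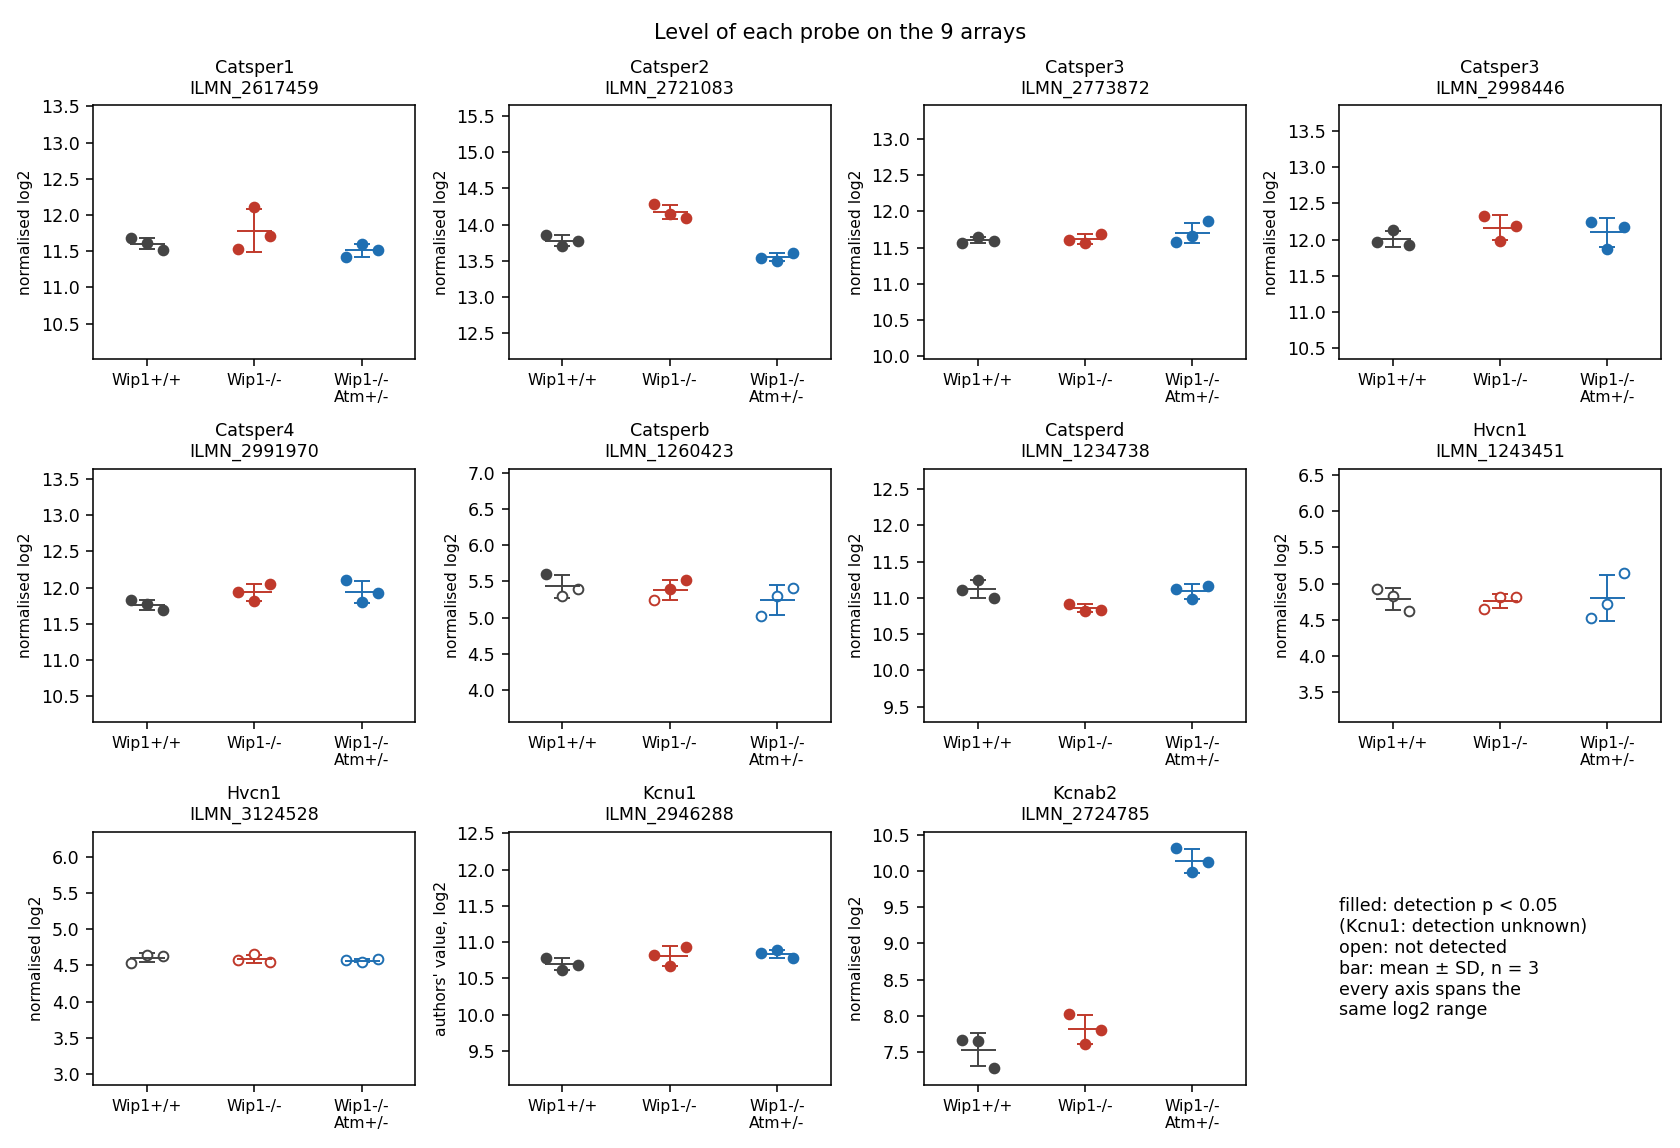
Normalised log2 level (vertical axis, the same span in each panel) of every member probe on the 9 arrays by genotype. Points are arrays, filled where detected, and bars give mean ± SD over 3 arrays; Kcnu1 is drawn from the authors' processed values. Kcnab2 is higher on the 3 arrays labelled Wip1-/- Atm+/- than on all others, the Catsper2 genotypes do not overlap, and both Hvcn1 probes are undetected on every array.

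The start regions of Catsper2 and Kcnab2, the members that changed, are shown with that of Catsper4, which was not called in any comparison. Each window holds 250 bases before and 50 after an annotated start (RefSeq, build GRCm38.p6), written 5′ to 3′ on the strand of the gene, which is the minus strand for all 3. Capitals mark TGACG, the core of the cAMP response element that the spermatid activator CREM binds, and CCAAT, the box bound by the factor NF-Y, on either strand, where CGTCA and ATTGG are their reverse complements. The Catsper2 window lies at chr2:121413743-121414042, the Kcnab2 window at chr4:152477500-152477799 and the Catsper4 window at chr4:134227334-134227633.
Catsper2: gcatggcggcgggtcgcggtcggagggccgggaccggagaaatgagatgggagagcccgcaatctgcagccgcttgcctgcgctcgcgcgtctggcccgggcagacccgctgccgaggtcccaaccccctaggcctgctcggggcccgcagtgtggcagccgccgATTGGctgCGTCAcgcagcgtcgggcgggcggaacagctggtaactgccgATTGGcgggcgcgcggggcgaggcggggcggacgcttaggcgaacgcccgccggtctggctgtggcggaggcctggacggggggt
Kcnab2: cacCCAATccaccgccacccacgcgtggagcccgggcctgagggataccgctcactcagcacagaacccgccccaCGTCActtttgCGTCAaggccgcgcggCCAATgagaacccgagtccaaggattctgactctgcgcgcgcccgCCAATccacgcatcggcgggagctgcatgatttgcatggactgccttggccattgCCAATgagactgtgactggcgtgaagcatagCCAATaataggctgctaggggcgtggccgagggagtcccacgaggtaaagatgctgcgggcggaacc
Catsper4: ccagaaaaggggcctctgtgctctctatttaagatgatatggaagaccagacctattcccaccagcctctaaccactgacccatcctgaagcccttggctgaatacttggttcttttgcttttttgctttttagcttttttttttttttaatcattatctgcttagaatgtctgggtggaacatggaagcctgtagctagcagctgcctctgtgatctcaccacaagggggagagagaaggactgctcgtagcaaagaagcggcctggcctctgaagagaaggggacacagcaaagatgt

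The Catsper2 window holds 1 TGACG, with its first base 77 bases before the start, and 2 CCAAT boxes. The Kcnab2 window, at the most upstream of its 3 annotated starts in the table, holds 2 TGACG and 5 CCAAT, and the windows at the other 2 starts hold none. The Catsper4 window holds neither motif. Among the other members with an entry, Catsperd has 3 TGACG at 1 of its 2 starts, Catsperb has 1 CCAAT and Catsper3 has none. The promoter table matched 6 of the 9 genes, and Catsper1, Kcnu1 and Hvcn1 were not among them. TGACG occurs in 20.8% and CCAAT in 37.4% of all 32851 windows of the table. The full palindrome TGACGTCA occurs in 1.79% of all windows and in none of the 9 member windows. Which start is used in these cells was not measured, and a match of letters is only a description.

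Catsper2 was the pore subunit that differed between genotypes. It was highest in Wip1-/-, lower in Wip1+/+ and lowest on the arrays labelled Wip1-/- Atm+/-. Its probe, ILMN_2721083, read 13.86, 13.70 and 13.78 on the 3 Wip1+/+ arrays on the log2 scale. The Wip1-/- arrays read 14.29, 14.15 and 14.09, and the arrays labelled Wip1-/- Atm+/- read 13.53, 13.50 and 13.61. No array of any genotype overlapped those of another. Non-overlap was frequent on this array set, at 36.6%, 40.7% and 48.5% of all probes in the 3 comparisons. Catsper2 rose 1.31-fold in Wip1-/- over Wip1+/+ (log2 change 0.40, SE 0.11, 95% interval 0.15 to 0.64, limma adjusted p = 0.0313). From Wip1-/- to the arrays labelled Wip1-/- Atm+/- it fell 1.54-fold (log2 change -0.62, SE 0.11, 95% interval -0.87 to -0.38, limma adjusted p = 0.00135). The arrays labelled Wip1-/- Atm+/- lay 0.23 below Wip1+/+ on the log2 scale (95% interval of the change -0.47 to 0.01, limma adjusted p = 0.151), which did not pass the threshold. In bulk RNA, fewer cells of a type and less RNA per cell cannot be told apart.

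The Catsper2 fall between the mutant genotypes was called under all 20 alternatives tried, and its rise in Wip1-/- under 11 of the 20. With single arrays left out the rise kept its size, with log2 changes from 0.34 to 0.44, while 5 of these 9 fits, each with fewer arrays, did not pass the threshold. The log2 change was 0.36 without Wip1+/+ replicate 2 (limma adjusted p = 0.0835) and 0.40 without Wip1+/+ replicate 3 (0.0562). It was 0.34, 0.41 and 0.44 without Wip1-/- replicate 1, 2 and 3 in turn (limma adjusted p = 0.117, 0.0682 and 0.057). With median scaling in place of quantile normalisation the rise was 0.16 on the log2 scale (limma adjusted p = 0.406), with cyclic loess 0.34 (limma adjusted p = 0.0585). Median scaling also moved the median change of all probes, to 0.09, -0.17 and -0.22 in the 3 comparisons. Under it Catsper2 was called lower on the arrays labelled Wip1-/- Atm+/- than in Wip1+/+ (log2 change -0.39, limma adjusted p = 0.0342). The direction of each Catsper2 change was the same under every alternative.

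**Figure D2:**
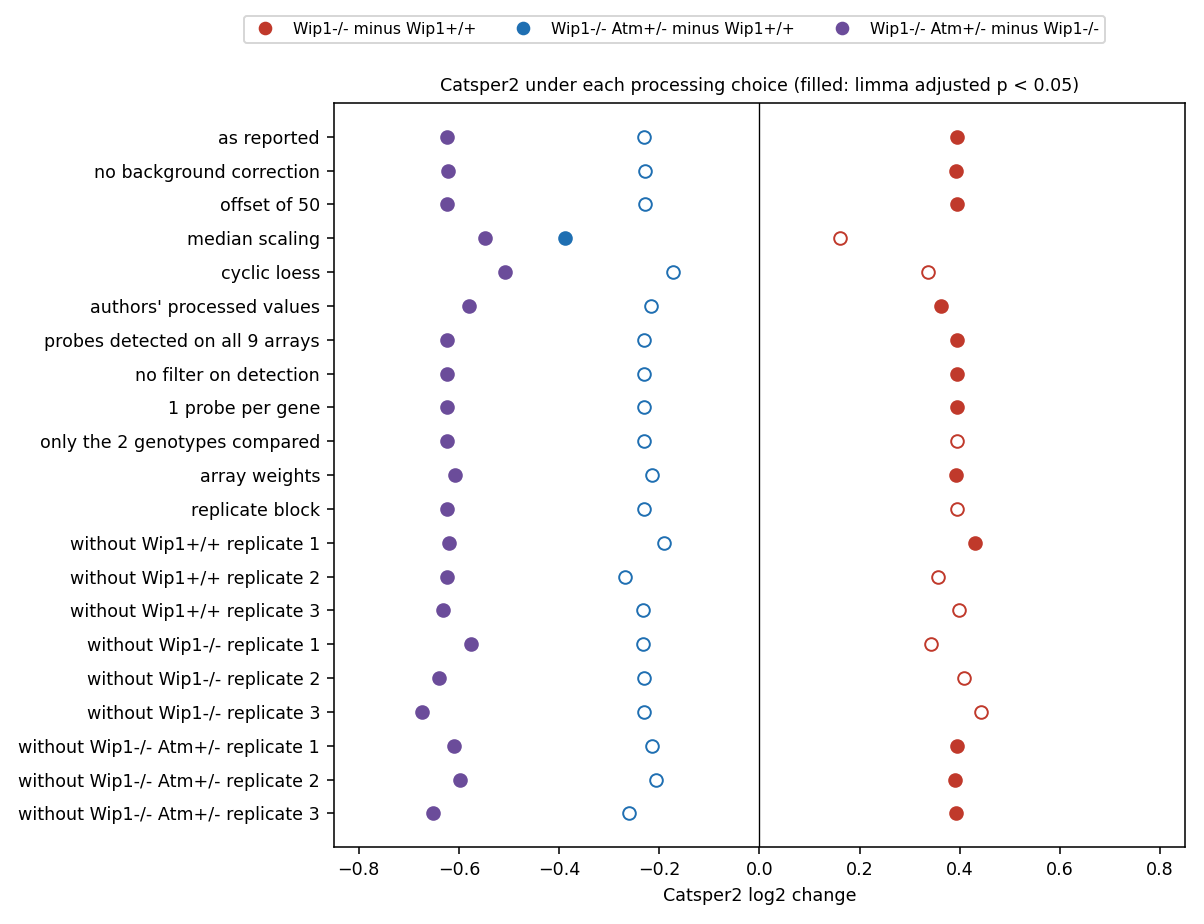
Log2 change of Catsper2 (horizontal axis) in the 3 comparisons under the reported processing and each of 20 alternatives (rows); filled points passed limma adjusted p 0.05. The change between the mutant genotypes is filled in every row, and the rise in Wip1-/- is open in 9 of the 20 alternatives.

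The summed level of the 6 spermatocyte markers tested, of 9 listed, moved in the same order as Catsper2. It ran from 12352 to 13819 on the Wip1+/+ arrays and from 15194 to 15522 on the Wip1-/- arrays. On those labelled Wip1-/- Atm+/- it ran from 9949 to 10880 (normalised intensity, linear scale). Ccna1 and Spo11 weighed most in this sum, with mean log2 levels of 12.61 and 12.12 in Wip1+/+. Of the 6 markers tested, 0 rose and 1 fell in Wip1-/- (Sycp1, of the synaptonemal complex, log2 change -0.76), and 0 rose and 3 fell on the arrays labelled Wip1-/- Atm+/- against Wip1+/+. From Wip1-/- to the arrays labelled Wip1-/- Atm+/-, 1 rose (Sycp1) and 3 fell (Spo11, Tex101 and Ccna1). Sycp3, Hormad1 and Dmc1 did not pass the detection filter. The summed level of the spermatogonium markers ran in the same order, from 1316 to 1596, from 1801 to 1969 and from 587 to 689, and 4 of the 5 tested fell in each comparison with the arrays labelled Wip1-/- Atm+/-. Dazl weighed most in this sum, with a mean log2 level of 9.66 in Wip1+/+. In Wip1-/- only Dazl rose (log2 change 0.58), and the other 4 were not called. The summed level of the 10 elongating spermatid markers on the array was lowest in Wip1-/-, at 271010 to 278758, where 0 rose and 2 fell. It ran from 292121 to 303613 in Wip1+/+ and from 296940 to 305112 on the arrays labelled Wip1-/- Atm+/-. For the 9 round spermatid markers tested the sums of the genotypes overlapped. They ran from 92545 to 98623 in Wip1+/+ and from 95353 to 98439 in Wip1-/-, where 0 rose and 1 fell. On the arrays labelled Wip1-/- Atm+/- they ran from 89754 to 97012. These marker counts stand beside 18%, 28.2% and 33.6% of all genes called in either direction by their brightest probe, in the 3 comparisons. The 1 of 6 spermatocyte markers called in Wip1-/- lay near the 18% of all genes. None of the counts was tested against these shares. The part of any of these cell types in the Catsper2 level was not tested.

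The genes whose level followed Catsper2 most closely over the 9 arrays, among 4338 genes that passed the F test, were Ccndbp1 (r = 0.985), Mdm1 (r = 0.984) and Rmdn3 (r = 0.973). These correlations describe 9 arrays that share their genotypes and carry no test. Ccndbp1 and Rmdn3 lie on chromosome 2 as Catsper2 does. Ccndbp1, which encodes a cyclin D-binding protein, is the fifth tested gene on 1 side of Catsper2. It rose by 0.70 in Wip1-/- and fell by 0.42 on the arrays labelled Wip1-/- Atm+/-, both on the log2 scale against Wip1+/+ (limma adjusted p = 0.00459 and 0.0317). Of the 10 tested genes around Catsper2, 4 rose and 1 fell in Wip1-/-, where 18% of all genes were called in either direction by their brightest probe. Next to Catsper2, Pdia3, an endoplasmic reticulum protein disulphide isomerase, rose by 0.65. Adal, a deaminase-like gene, and Serinc4, of the serine incorporator family, rose by 0.76 and 0.42, and Tubgcp4, of the gamma-tubulin ring, fell by 1.03. Against Wip1+/+ the arrays labelled Wip1-/- Atm+/- had 2 of these 10 genes higher and 2 lower, where 28.2% of all genes were called. The log2 change of Adal was there 1.89 and that of Tubgcp4 -1.28. Adal was detected on 2 of 3 Wip1+/+ arrays, and Tubgcp4 on 2 of the 3 labelled Wip1-/- Atm+/-. The genes around Catsper2 therefore moved in both directions.

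**Figure D3:**
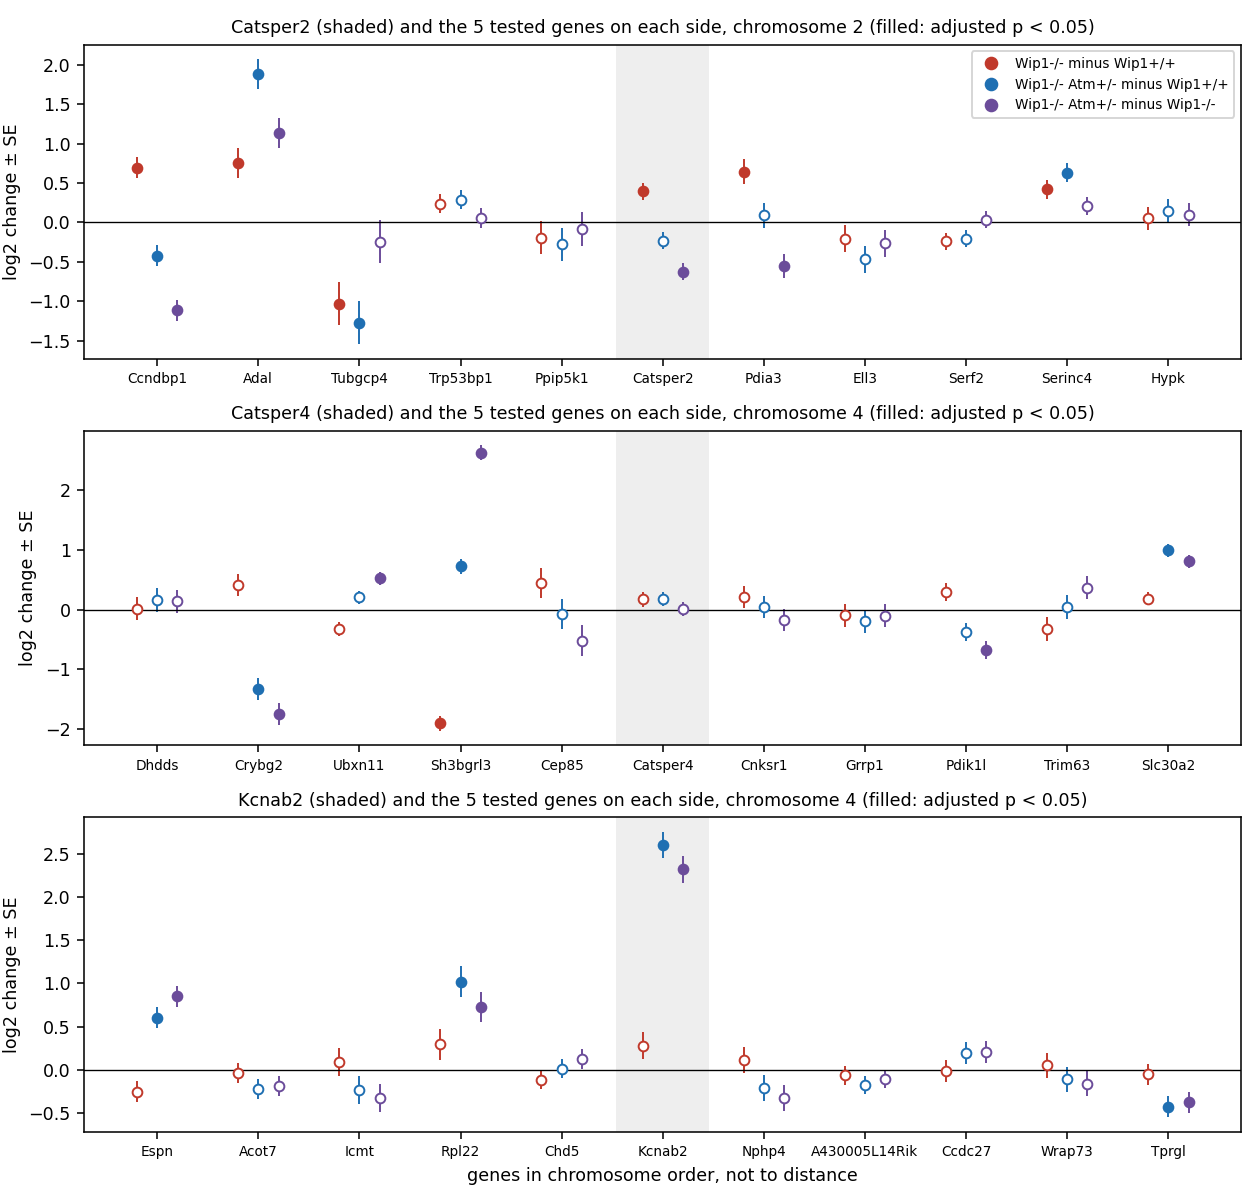
Log2 change ± SE (vertical axis) of Catsper2, Catsper4 and Kcnab2 (shaded) and of the 5 tested genes on each side in chromosome order (horizontal axis, not to distance), in the 3 comparisons; filled points passed limma adjusted p 0.05. Against Wip1+/+, Adal rises and Tubgcp4 falls in both mutant genotypes beside Catsper2, Sh3bgrl3 falls in Wip1-/- and rises in the other 2 comparisons beside an uncalled Catsper4, and Kcnab2 stands above its neighbours in the comparisons with the arrays labelled Wip1-/- Atm+/-.

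The other pore subunits were not called in any comparison. Catsper1 (probe ILMN_2617459, chromosome 19) read 11.68, 11.62 and 11.52 in Wip1+/+, 11.53, 12.11 and 11.72 in Wip1-/-, and 11.41, 11.60 and 11.52 on the arrays labelled Wip1-/- Atm+/- (log2 level). Its genotypes overlapped, and Wip1-/- replicate 2 was the highest array. The log2 change was 0.18 in Wip1-/- (95% interval -0.15 to 0.51, limma adjusted p = 0.432) and -0.09 on the arrays labelled Wip1-/- Atm+/- (95% interval -0.42 to 0.23, limma adjusted p = 0.685), both against Wip1+/+. Between the mutant genotypes it was -0.27 (limma adjusted p = 0.183), and under median scaling this change was called at -0.42 (limma adjusted p = 0.0485).

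Catsper3 (chromosome 13) had 2 detected probes. Probe ILMN_2773872 read 11.57, 11.65 and 11.59 in Wip1+/+, 11.61, 11.56 and 11.69 in Wip1-/-, and 11.58, 11.67 and 11.86 on the arrays labelled Wip1-/- Atm+/-. Probe ILMN_2998446 read 11.96, 12.14 and 11.92, then 12.32, 11.98 and 12.18, then 12.25, 11.88 and 12.17 in the same order. The genotypes overlapped for both probes, and the log2 changes lay between -0.06 and 0.16 over the 3 comparisons. The 95% intervals of the change in Wip1-/- were -0.23 to 0.27 for the former and -0.15 to 0.46 for the latter. The 2 probes correlated at r = 0.22 over the 9 arrays, so they followed each other little where neither was called.

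Catsper4 (probe ILMN_2991970, chromosome 4) read 11.83, 11.77 and 11.69 in Wip1+/+, 11.93, 11.81 and 12.05 in Wip1-/-, and 12.10, 11.80 and 11.93 on the arrays labelled Wip1-/- Atm+/-. The genotypes overlapped, and both mutant means lay above that of Wip1+/+. The log2 change was 0.17 in Wip1-/- (95% interval -0.10 to 0.44, limma adjusted p = 0.363) and 0.18 on the arrays labelled Wip1-/- Atm+/- (95% interval -0.09 to 0.45, limma adjusted p = 0.304). Over the 9 arrays Catsper4 correlated at 0.73 with Catsper3 probe ILMN_2998446 and at 0.07 with Catsper2. In Wip1-/- all 5 pore subunit probes, 2 of them for Catsper3, had a change above 0, with only Catsper2 called. The smallest was 0.02 (Catsper3 probe ILMN_2773872), beside a median of 0.02 over all probes. No difference between subunits was tested. Near the uncalled Catsper4, Sh3bgrl3, an SH3-domain-binding protein gene, fell by 1.90 in Wip1-/- on the log2 scale and rose by 0.73 on the arrays labelled Wip1-/- Atm+/- against Wip1+/+ (limma adjusted p = 2.44e-05 and 0.0013). In the latter comparison Crybg2, detected on 1 of the 3 arrays labelled Wip1-/- Atm+/-, fell by 1.33. The zinc transporter gene Slc30a2 was not well above background on any Wip1+/+ array and was at least 1.82-fold higher on the arrays labelled Wip1-/- Atm+/- (limma adjusted p = 5.01e-05). Such a bound sets the mean of the brighter group against the lowest detected signal of each dimmer array, or the probe's own value where that is higher. Around each of the other 6 members (Catsper1, Catsper3, Catsperb, Catsperd, Hvcn1 and Kcnu1), at most 2 of 10 tested genes rose and at most 1 fell in Wip1-/-, where 18% of all genes were called by their brightest probe. On the arrays labelled Wip1-/- Atm+/- at most 3 rose and at most 3 fell against Wip1+/+ (28.2% of all genes called). Against Wip1-/- at most 2 rose, and from 1 to 5 fell, the 5 being around Catsperb (33.6% of all genes called).

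Of the auxiliary subunits, Catsperd (probe ILMN_1234738, chromosome 17) read 11.11, 11.25 and 11.00 in Wip1+/+, 10.92, 10.82 and 10.84 in Wip1-/-, and 11.13, 10.98 and 11.16 on the arrays labelled Wip1-/- Atm+/-. All 3 Wip1-/- arrays were lower than every other array. The log2 change in Wip1-/- was -0.26 (95% interval -0.51 to -0.01, limma adjusted p = 0.146), which did not pass the threshold over all probes. That between the mutant genotypes was 0.23 (limma adjusted p = 0.15). With Catsper2, it was the second member probe without overlap in Wip1-/- against Wip1+/+, so 2 of 8 member probes did not overlap there, beside 36.6% of all probes. Against Wip1+/+ the arrays labelled Wip1-/- Atm+/- had 2 of 8 without overlap (Catsper2 and Kcnab2), beside 40.7%, and against Wip1-/- 3 of 8, beside 48.5%.

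Catsperb (probe ILMN_1260423, chromosome 12) lay near background. It was detected on 1 Wip1+/+ array, on 2 Wip1-/- arrays and on 0 arrays labelled Wip1-/- Atm+/-, where it was not well above background, so no fold is given. Its detection p ran from 0.0342 to 0.189 over the 9 arrays, and no difference was called.

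**Figure D4:**
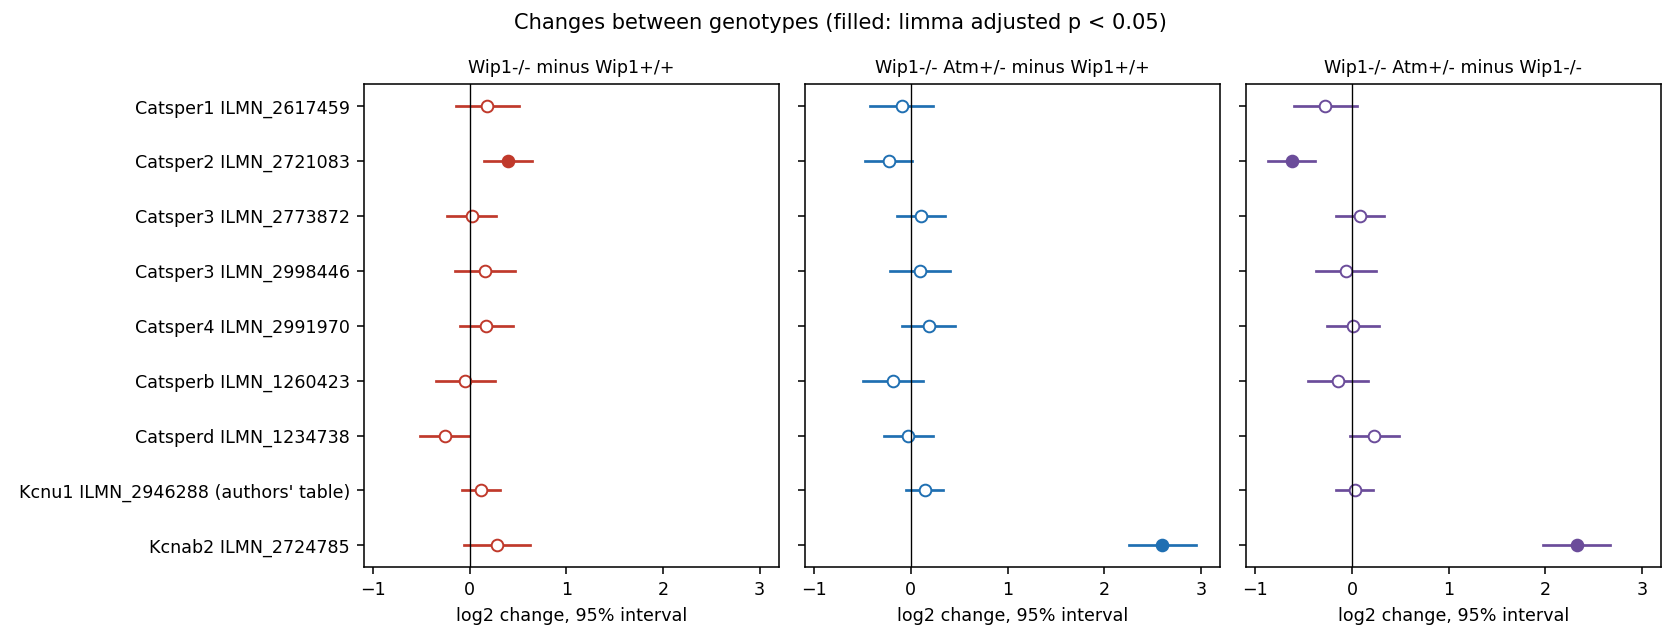
Log2 change (horizontal axis) with its 95% interval for the 8 tested member probes and for Kcnu1 from the authors' table, in the 3 comparisons; filled points passed limma adjusted p 0.05. Most intervals cross 0, and only the Catsper2 and Kcnab2 points are filled.

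Kcnu1 (probe ILMN_2946288, chromosome 8), the pore of the sperm potassium channel, was listed in the authors' processed table at 1761, 1565 and 1652 in Wip1+/+, 1812, 1625 and 1959 in Wip1-/-, and 1845, 1896 and 1751 on the arrays labelled Wip1-/- Atm+/-. Wip1-/- overlapped both other genotypes, and the arrays labelled Wip1-/- Atm+/- overlapped Wip1+/+ only through a replicate at 1751 against one at 1761. A limma fit to the log2 values of that whole table gave a change of 0.11 in Wip1-/- (95% interval -0.08 to 0.31, adjusted p = 0.609) and of 0.14 on the arrays labelled Wip1-/- Atm+/- (95% interval -0.05 to 0.34, adjusted p = 0.421), where 7.99% and 13.1% of all probes in the table were called. Between the mutant genotypes the change was 0.03 (adjusted p = 0.929), where 15.1% were called. Whether the scanner detected this probe is unknown, since its cells are blank.

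Hvcn1 (chromosome 5) was not well above background on any of the 9 arrays by either probe. The detection p ran from 0.131 to 0.939 for ILMN_1243451 and from 0.658 to 0.928 for ILMN_3124528. No change was measured for it, and a low level cannot be told from none with these probes.

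Kcnab2 showed the largest change of the members. Its probe, ILMN_2724785 (chromosome 4), read 7.67, 7.66 and 7.27 in Wip1+/+ and 8.02, 7.62 and 7.80 in Wip1-/- on the log2 scale. The arrays labelled Wip1-/- Atm+/- read 10.31, 9.98 and 10.12. These 3 arrays stood apart from the other 6, while Wip1+/+ and Wip1-/- overlapped. Kcnab2 was 6.08-fold higher on the arrays labelled Wip1-/- Atm+/- than in Wip1+/+ (log2 change 2.60, SE 0.16, 95% interval 2.26 to 2.95, limma adjusted p = 3.82e-07). It was 5.01-fold higher than in Wip1-/- (log2 change 2.32, SE 0.16, limma adjusted p = 2.74e-06). Between Wip1-/- and Wip1+/+ the log2 change was 0.28 (95% interval -0.06 to 0.62, limma adjusted p = 0.242). Ranked among the 10556 genes tested, it was the 57th highest change against Wip1+/+ and the 11th highest against Wip1-/-. In the authors' processed table, which keeps the background, the same rise was 4.28-fold. Under the 20 alternatives the log2 change against Wip1+/+ lay between 2.10 and 2.70 and was called in each.

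Most stromal and vascular markers and the erythroid markers tested were also high on these arrays, whereas markers of other somatic cells were not uniformly so. The summed level of the 9 stromal and vascular markers tested ran from 4356 to 4386 in Wip1+/+ and from 10462 to 11544 in Wip1-/-. On the arrays labelled Wip1-/- Atm+/- it ran from 24372 to 24646. Acta2 weighed most in this sum, with mean log2 levels of 11.59, 12.89 and 14.02 in the same order. Of the 9 tested, 7 rose in Wip1-/- and 8 rose on the arrays labelled Wip1-/- Atm+/-, both against Wip1+/+, with 0 lower in either. By their brightest probe, 18% and 28.2% of all genes were called in these comparisons in turn, in either direction. The smooth muscle myosin gene Myh11, for example, changed by 1.11 and 3.17 on the log2 scale. The summed level of the 3 erythroid markers tested, of 6 listed, ran from 210 to 253 in Wip1+/+ and from 401 to 481 in Wip1-/-. On the arrays labelled Wip1-/- Atm+/- this erythroid sum ran from 1732 to 1815. Pecam1 and Alas2 did not pass the detection filter. The endothelial gene Cldn5, detected on 1 of 3 Wip1+/+ arrays, rose by 2.14 in Wip1-/- and fell by 1.89 from there to the arrays labelled Wip1-/- Atm+/- (log2 changes). Its change on the latter against Wip1+/+ was 0.25 and was not called (limma adjusted p = 0.315). Against Wip1+/+ the arrays labelled Wip1-/- Atm+/- had 0 of 4 macrophage and myeloid markers higher and 2 lower, 1 of 3 lymphocyte markers higher and 1 lower, 1 of 4 Sertoli markers higher and 0 lower, and the 1 Leydig marker tested not called. The summed macrophage and myeloid level ran from 205 to 253 in Wip1+/+ and from 212 to 226 on those arrays. Kcnab2 itself was not called in Wip1-/-, where the stromal and vascular and the erythroid sums lay above those of Wip1+/+. Of the single markers, 7 of 9 stromal and vascular and 2 of 3 erythroid ones rose there. Col1a1 and Klf1 were not called there, with log2 changes of 0.32 and -0.15. On the arrays labelled Wip1-/- Atm+/- they were 2.33 and 2.92 higher than in Wip1+/+. Col1a2 was detected only on those arrays and was at least 1.92-fold higher there than in Wip1+/+. The part of any of these cell types in the Kcnab2 level was not tested.

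The genes whose level followed Kcnab2 most closely over the 9 arrays were Tmem256 (r = 0.995), Sun2 (r = 0.993) and Gal3st2 (r = 0.992), again as a description. Sun2 encodes a nuclear envelope protein that links the nucleus to the cytoskeleton, and Gal3st2 a galactose sulphotransferase. Sun2 was 0.93 higher on the arrays labelled Wip1-/- Atm+/- than in Wip1+/+ on the log2 scale. Gal3st2 was detected only on these 3 arrays, through which alone it passed the detection filter. It was at least 6.92-fold higher there than in Wip1+/+, given as a description since it was picked for its likeness to Kcnab2. Of the 10 tested genes around Kcnab2, 0 were called in Wip1-/-. On the arrays labelled Wip1-/- Atm+/-, 2 were higher than in Wip1+/+ (the ribosomal protein gene Rpl22 by 1.02 and the actin-bundling gene Espn by 0.60) and Tprgl was lower (log2 change -0.43). None of these 10 changed as much as Kcnab2.

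Most of the partners through which Kcnab2 acts in neurons did not pass the detection filter. Of 12 relatives of Kcnu1 and partners or paralogues of Kcnab2, 9 did not pass it, among them Kcna1, Kcna2, Kcna3, Kcna4, Kcna5, Kcna10 and Kcnab3. Of all 19057 genes named on the platform, 10556 were tested. Of the 3 tested, Kcnma1, the large-conductance calcium-activated channel, and Kcnab1 were not called. Kcna6, a Shaker-type channel, fell by 0.96 in Wip1-/- (SE 0.13, limma adjusted p = 0.000755). Between the mutant genotypes it was 1.06 higher on the arrays labelled Wip1-/- Atm+/- on the log2 scale (limma adjusted p = 9.83e-05), and against Wip1+/+ its log2 change was 0.10 (limma adjusted p = 0.615).

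Other parts of the CatSper complex were followed in a list of 10 genes, of which 5 were tested. The share of all genes called by their brightest probe was 18%, 28.2% and 33.6% in the 3 comparisons. In Wip1-/- against Wip1+/+, C2cd6, an auxiliary subunit needed to carry the channel into the tail, rose by 0.46 (limma adjusted p = 0.0163) and Tmem262, a further auxiliary subunit, fell by 0.61 (limma adjusted p = 0.0107), with 3 not called. Against Wip1+/+ the arrays labelled Wip1-/- Atm+/- had 0 of 5 called. Tmem262 rose by 0.59 between the mutant genotypes (limma adjusted p = 0.00605) and 4 were not called. Catsperg2, Catsperz and Efcab9, the last a pH-dependent calcium sensor of the channel, were not called in any comparison. The median log2 change of the 5 was 0.24, 0.10 and -0.22 in the 3 comparisons, beside 0.04, -0.03 and -0.02 over all genes. Catsperg1 and Slco6c1 did not pass the detection filter.

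Among 20 other genes of sperm ion transport, 13 were tested. In the 3 comparisons in turn, 1 rose and 1 fell, 2 rose and 2 fell, and 1 rose and 4 fell. Of all genes, 18%, 28.2% and 33.6% were called in these by their brightest probe. In Wip1-/- 1 rose (the chloride-proton exchanger Clcn3, by 0.36) and 1 fell (the ATP-gated channel P2rx2, by 0.93). On the arrays labelled Wip1-/- Atm+/- against Wip1+/+, Clcn3 and the mitochondrial porin Vdac2 rose, by 0.33 and 0.47. The sodium-proton exchanger Slc9a8 fell by 0.72 and the chloride and bicarbonate channel Cftr fell by 1.45, a 2.74-fold fall (limma adjusted p = 0.000136). Between the mutant genotypes P2rx2 rose by 0.72, and Slc9c1, Slc9a8, Cftr and Pkdrej fell by 0.56, 1.01, 1.99 and 0.36. Slc9c1 encodes the sperm-specific sodium-proton exchanger. Lrrc52, the auxiliary subunit of the Kcnu1 channel, was not called in any comparison. Vdac3 has blank scanner cells, and in a limma fit to the authors' processed table it fell by 0.54 on the arrays labelled Wip1-/- Atm+/- against Wip1+/+ (adjusted p = 0.0011).

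All 14 genes listed for capacitation and hyperactivation signalling, the cAMP, calcineurin and glycolysis genes of the sperm tail among them, were tested. By their brightest probe, 18% of all genes were called in Wip1-/- and 28.2% on the arrays labelled Wip1-/- Atm+/-, both against Wip1+/+. In Wip1-/- 1 rose (Prkar1a, a regulatory subunit of protein kinase A, by 0.58) and 2 fell, namely Abhd2 by 0.36 and the testis kinase Tssk6 by 0.46. Abhd2 encodes the lipase through which progesterone relieves inhibition of CatSper in human sperm. On the arrays labelled Wip1-/- Atm+/- against Wip1+/+, 2 rose (Prkar1a by 1.27 and the soluble adenylyl cyclase Adcy10 by 0.42) and Abhd2 fell by 0.53. Between the mutant genotypes 6 rose and 2 fell, where 33.6% of all genes were called by their brightest probe. The 4 with the largest change were Prkar1a, which rose by 0.69, Tssk6, which rose by 0.55, the calcineurin subunit Ppp3r2, which fell by 0.50, and the egg-activating phospholipase Plcz1, which rose by 0.48. Prkar1a is expressed in most tissues, and its rise lay beside that of the stromal markers on the same arrays, whose part in it was not tested.

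**Figure D5:**
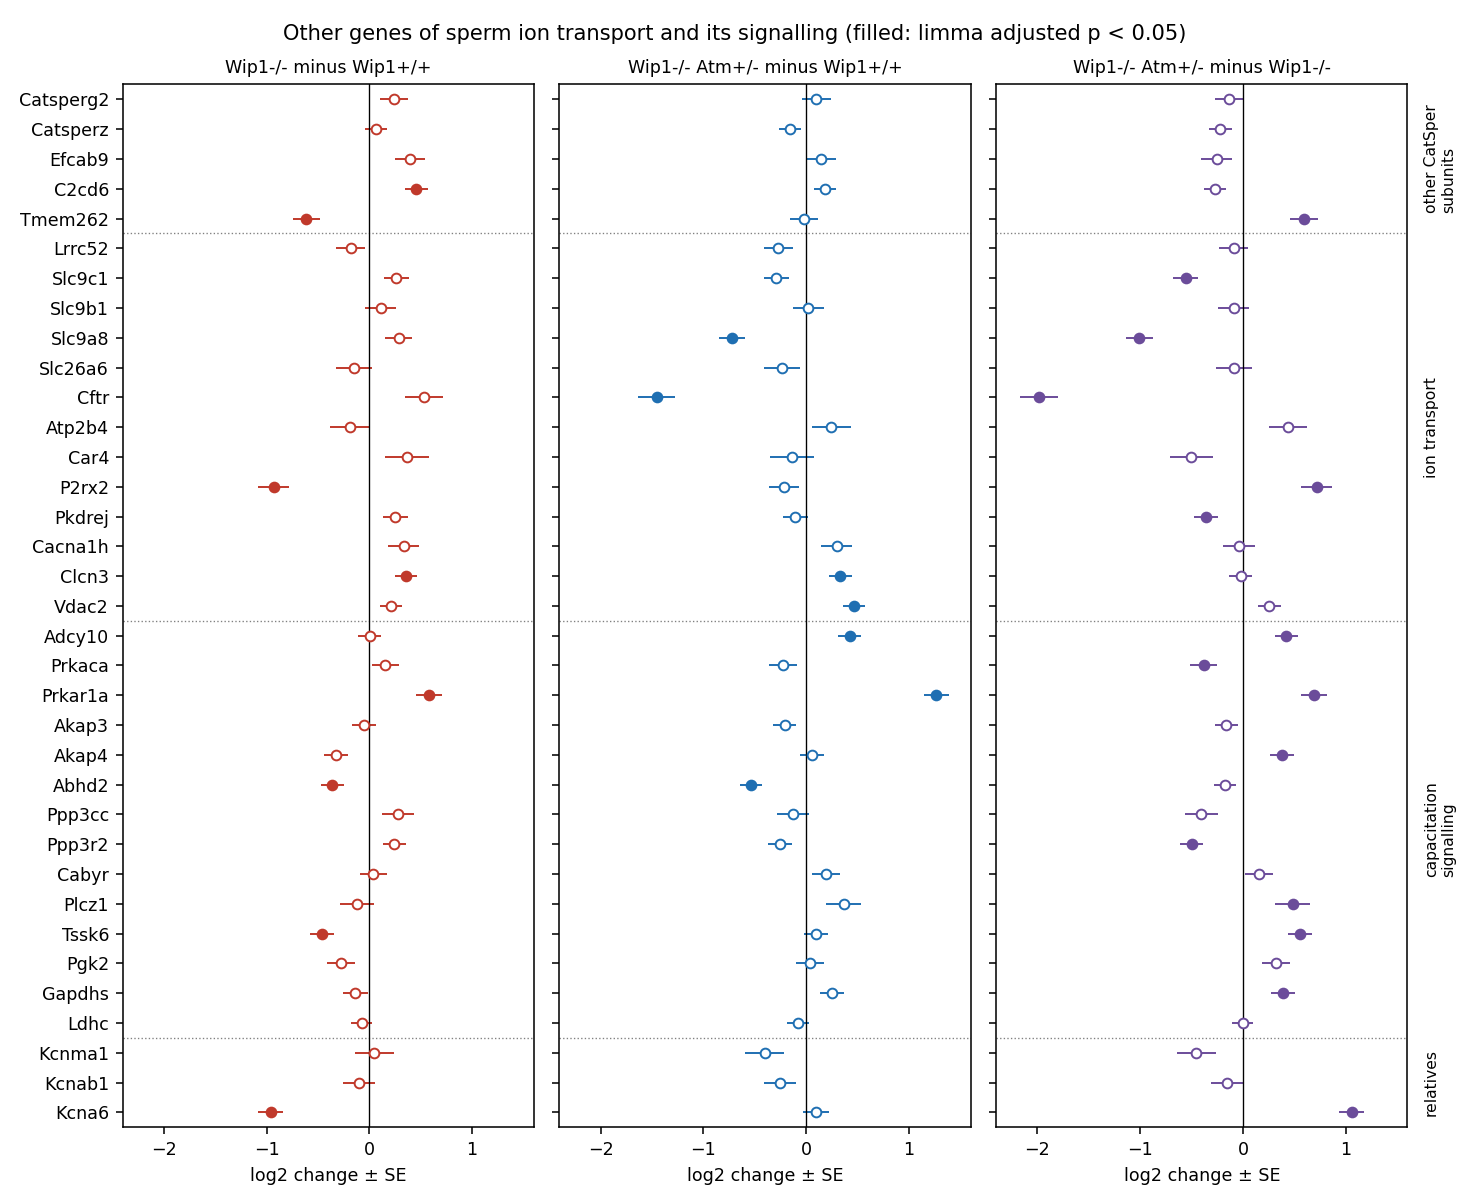
Log2 change ± SE (horizontal axis) of the tested genes of the 4 lists (rows) in the 3 comparisons; filled points passed limma adjusted p 0.05. Cftr lies lowest in both comparisons with the arrays labelled Wip1-/- Atm+/-, and most genes of the lists are open.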

How the data were processed

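RNA was extracted with Trizol and labelled as biotinylated cRNA, per the labels' protocols. The deposited scanner table gives each probe's intensity, not normalized, and its detection p-value, per the file headers. The authors' processed table of the same arrays gives linear intensity values whose columns share 1 distribution, with its normalization not given in the sources used here. Scanner cells are blank for 1697 probes, and 895 detection p-values without a decimal point were read as thousandths.

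The neqc function (limma 3.58.1, R 4.3.3) was applied to the signals (background from detection p-values, offset 16, quantile normalization). The offset shrinks changes of dim probes. Probes with detection p under 0.05 on at least 3 of 9 arrays were kept (18867, for 10556 genes), and each was fitted with lmFit and eBayes on all 9 arrays. The 3 two-sided contrasts and the F test were adjusted by Benjamini-Hochberg over all probes kept, at 0.05. The script was tested on simulated data. Kcnu1 and Vdac3 were fitted on log2 of the authors' values. Gene names come from the platform annotation, where 34885 probes have 1 symbol, 18 several and 10376 none. Listed and neighbouring genes were read from their brightest detected probe. Named were all members, Ppm1d and Atm, the 3 genes most alike each member that passed the F test, up to 4 called genes per list, and called genes among the 5 on each side. These neighbours are named around Catsper2, Catsper4 and Kcnab2 and only counted elsewhere, a choice made after their values were seen. The members and lists were chosen with earlier results of these data known. No slide is given. Precision is limited by how few arrays each genotype has. Columns of sample values left unused were 0.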

Additional observations from a re-analysis of the deposited data

How the results depend on the processing

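The number of member probes called was recomputed under 11 other settings and with each of the 9 arrays left out. For Wip1-/- against Wip1+/+ the count of 1 became 0 under median scaling, cyclic loess, a fit of only the 2 genotypes compared and the replicate block, and ran from 0 to 1 with single arrays left out. For the arrays labelled Wip1-/- Atm+/- against Wip1+/+ it became 2 under median scaling, and between the mutant genotypes it became 3. The lost call was that of Catsper2, whose log2 change of 0.40 did not move in the fit of 2 genotypes (limma adjusted p = 0.0557) or with the replicate block (0.0527). The labels do not say whether replicate numbers pair the arrays. Deviations of same-numbered arrays from their genotype mean correlated at -0.33 to 0.28 (all probes). Between the mutant genotypes these were 0.28, 0.16 and 0.04, beside -0.24 to 0.07 for differently numbered arrays. Deviations from means of only 3 arrays cannot decide on pairing. The block was therefore only an alternative, and it changed no other call of a member. Of 465 values of single member probes under alternatives, 454 kept their side of the threshold, 9 lost it and 2 gained it. Among them 17 uncalled values had the opposite sign, the largest of them 0.18 in the reported fit. The Kcnab2 change between the mutant genotypes lay between 1.89 and 2.44, and that of Catsper2 between -0.67 and -0.51 (limma adjusted p from 6.11e-05 to 0.00765). Kcnu1 was called under none of its alternatives, among them a fit to detected and blank-cell probes only, chosen after seeing the data (adjusted p = 0.455, 0.305 and 0.857 in the 3 comparisons). A block for slide was not run because the files give none. The signal over background limits Catsperb and Hvcn1.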
